A study of Rattus norvegicus with 12 samples.

Results

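The 7 genes described here encode the channels by which cells sense pressure and acid, and a partner protein. They are Piezo1 and Piezo2, the acid-sensing ion channels Asic1, Asic2, Asic3 and Asic4, and Stoml3, taken by gene symbol from the 20152 genes listed for rat dorsal root ganglion, where the cell bodies of sensory neurons lie. The 12 RNA sequencing libraries formed groups of 4, for vehicle, for paclitaxel (2.0 mg/kg) and for oxaliplatin (2.4 mg/kg). Paclitaxel stabilises microtubules and oxaliplatin is a platinum drug that binds DNA, and intraperitoneal injection of either served as a model of painful neuropathy. Paclitaxel was given in DMSO and saline and oxaliplatin in glucose solution, while the labels name 1 vehicle group and no solvent for it. The labels give no strain, sex, age or hour of collection, and do not say whether replicates were separate animals or pools, so the spread behind each p-value is that between these samples and may be technical.

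Piezo proteins are very large membrane proteins that open when the membrane is stretched and let cations in. Piezo2 is the main transducer of touch and of limb position in sensory neurons, and Piezo1 is known from endothelial cells, red blood cells and other cells that feel flow and stretch. Acid-sensing ion channels are sodium channels of the DEG/ENaC family that open when protons accumulate outside the cell, as in inflamed or poorly perfused tissue. Asic3 is the member most closely tied to sensory neurons, Asic1 and Asic2 are found throughout the nervous system, and Asic4 gives no proton current by itself. Stoml3 is a stomatin-like membrane protein that tunes the sensitivity of mechanically gated channels in touch neurons.

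Library totals were 17008728 to 17615736 estimated counts, and 15809 genes passed the filter on low counts and were tested, among them 6 of the 7 genes. Stoml3 did not pass. Levels are given as CPM (counts scaled to library size with TMM factors) when libraries are compared, and as deposited FPKM (also scaled to transcript length) when genes are compared. Defining genes of the ganglion were high in the vehicle libraries: Avil at 295 ± 32.4 FPKM, Isl1 at 23.4 ± 2.66, Pou4f1 at 35.2 ± 2.15, Prph at 1444 ± 98.3 and Scn10a at 91.0 ± 9.45 (SD, n = 4). Genes count as called where edgeR's quasi-likelihood test gave an adjusted p (Benjamini-Hochberg, all tested genes) under 0.05.

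Piezo1 was the 1 member that passed the test, in both comparisons that involve oxaliplatin: it was 1.58-fold higher than in vehicle and 1.72-fold higher than after paclitaxel. The call against vehicle was lost in 6 of the 8 fits that left out 1 library. After paclitaxel 0 of the 6 tested members were called, against a background of 0.12% of all tested genes (2697 genes had an unadjusted p under 0.05). After oxaliplatin 1 of 6 was called, against 1.76% of all genes. Between the drugs 1 of 6 was called, against 11.3% of all genes. The groups did not overlap for 0, 1 and 1 members in those comparisons, where 6.96%, 11.3% and 15.3% of all tested genes did not overlap. The median log2 fold change of the 6 members was 0.16 after paclitaxel, -0.10 after oxaliplatin and -0.27 for oxaliplatin against paclitaxel, and over all genes it was -0.012, 0.0094 and 0.0042. The 3 comparisons share libraries pairwise, so their values are not independent.

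**Figure D1:**
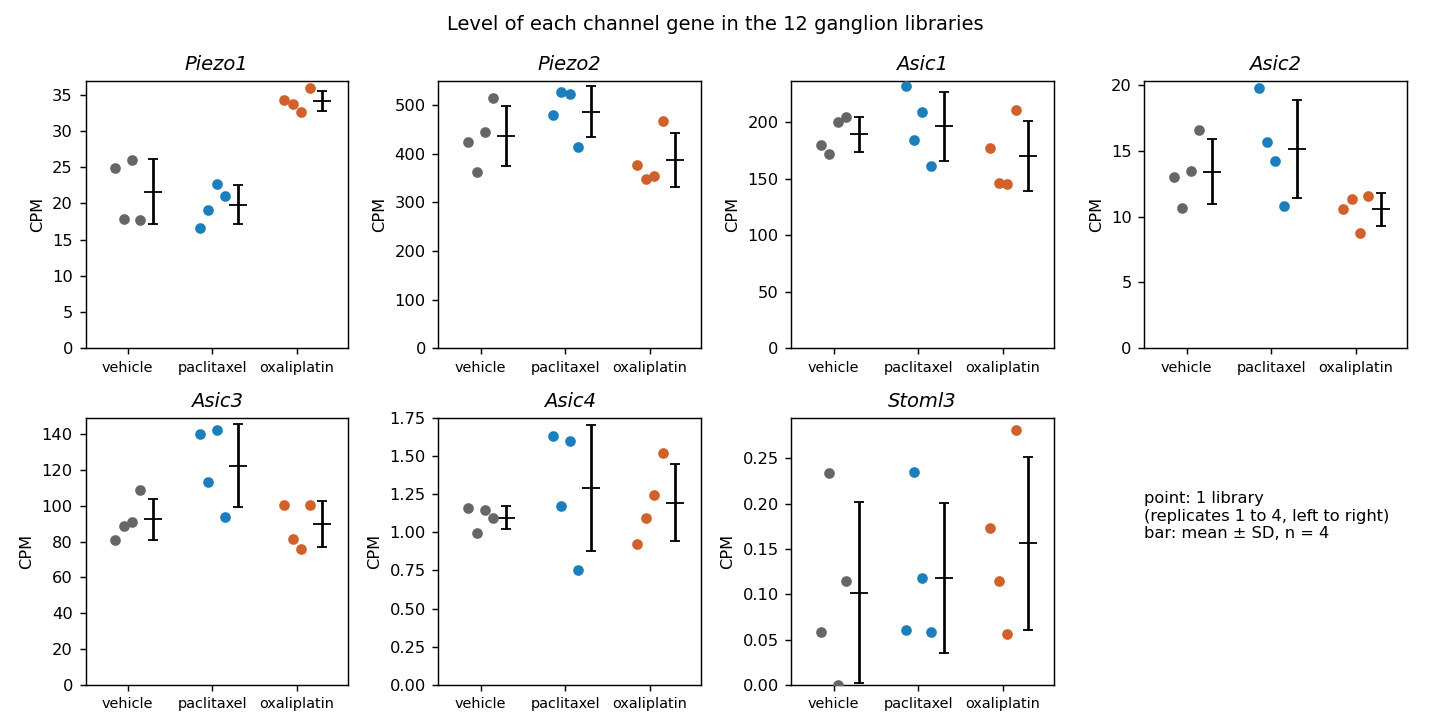
Level of each gene in CPM (vertical axis, from 0) in the 4 vehicle, 4 paclitaxel and 4 oxaliplatin libraries; each point is 1 library and the bar beside it is the mean ± SD. The 4 oxaliplatin libraries lie between 32.7 and 36.0 CPM for Piezo1, above all 8 others, whereas for the other genes the groups overlap.

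Within the vehicle libraries the genes fell into an abundant set and a scarce one. Asic1 (47.4 ± 3.86 FPKM), Asic3 (42.5 ± 6.06) and Piezo2 (40.3 ± 5.89) stood highest, and their ranges over the 4 libraries overlapped, so no order among them can be read. Asic2 followed at 5.59 ± 1.12 FPKM and Piezo1 at 2.53 ± 0.544. Asic4 stood at 0.415 ± 0.0332 FPKM and Stoml3 at 0.150 ± 0.150, and from Piezo2 downwards each gene's range lay apart from the next. After paclitaxel Asic3 came first at 55.4 ± 10.1 FPKM, ahead of Asic1 (47.2 ± 6.02) and Piezo2 (43.5 ± 4.39), with overlapping ranges. After oxaliplatin the ranges of Asic2 (4.54 ± 0.537 FPKM) and Piezo1 (4.11 ± 0.198) overlapped, which they did not in the other groups.

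Piezo1, the less abundant Piezo gene here, measured 25.0, 17.8, 26.0 and 17.7 CPM in vehicle libraries 1 to 4. In the paclitaxel libraries it measured 16.6, 19.1, 22.7 and 21.0 CPM, and in the oxaliplatin libraries 34.4, 33.7, 32.7 and 36.0 CPM. All oxaliplatin libraries lay above all the others, and the vehicle libraries fell into a higher and a lower pair. The log2 fold change was 0.66 ± 0.14 (SE) for oxaliplatin against vehicle (adjusted p = 0.032, edgeR) and 0.78 ± 0.14 for oxaliplatin against paclitaxel (adjusted p = 0.00628). Paclitaxel against vehicle gave -0.12 ± 0.14 (adjusted p = 0.625). The estimated counts behind these levels were 274 to 640 per library. They were not whole in 8 of 12 libraries, so Piezo1 is uncertain where reads were shared with another gene, and the size of that part was not measured.

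The Piezo1 difference from vehicle kept its direction in all 20 settings, and its call did not hold in all. Leaving out 1 library at a time gave log2 fold changes of 0.57 to 0.75, and the call was lost in the fits without vehicle library 2 (adjusted p = 0.0921) or 4 (0.110), and without oxaliplatin library 1 (0.0727), 2 (0.0563), 3 (0.0644) or 4 (0.0653), all by edgeR. In all it was lost in 8 of the 20 settings, and limma-trend on log2(FPKM + 1) without a filter was another of them (0.55, adjusted p = 0.0513). Over all 20 settings the adjusted p ran from 0.000584 to 0.110. For oxaliplatin against paclitaxel the call held in each of the 8 fits that left out a library (adjusted p 0.00475 to 0.0222), and was lost with the pan-neuronal score as a covariate (0.69, adjusted p = 0.185). That score did not overlap between the drug groups, so the covariate fit cannot tell drug and neuronal level apart.

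Markers of several non-neuronal cell types were higher in the oxaliplatin libraries, as Piezo1 was, and those of satellite glia and macrophages were mostly lower than in vehicle. The background for the called counts is 1.76% of all tested genes against vehicle and 11.3% against paclitaxel. Of 15 endothelial markers, 13 were higher after oxaliplatin than in vehicle (median log2 fold change 0.29, 1 called), and all 15 were higher than after paclitaxel (median 0.49, 6 called). The summed endothelial level was 239 to 352 CPM in vehicle, 236 to 270 in paclitaxel and 323 to 382 in oxaliplatin libraries, and no marker was at 0 in any group. After oxaliplatin 7 of 8 fibroblast markers were higher than in vehicle (median 0.24, 0 called) and 8 of 8 than after paclitaxel (0.70, 6 called), as were 8 of 8 pericyte and smooth muscle markers both times (0.30 and 0.45, 0 and 3 called). Of 10 tested erythroid markers 9 were higher both times (medians 1.12 and 2.16, 0 and 9 called), with summed levels of 279 to 358 CPM in vehicle, 243 to 395 in paclitaxel and 332 to 518 in oxaliplatin libraries. Of 6 adipocyte markers 5 were higher (2.06 and 2.16, 3 and 4 called), and of 7 B cell markers 6 (1.72 and 2.51, 0 and 6 called). All 9 markers of myelinating Schwann cells were higher both times (0.12 and 0.22, 0 called). Against vehicle 6 of 7 satellite glial markers were lower (median -0.12) and 8 of 11 macrophage markers (-0.19), with 0 called in either list. Against paclitaxel 5 of 7 satellite glial markers were higher (0.12, 0 called) and 11 of 11 macrophage markers (0.63, 5 called). In bulk tissue more cells of a type and more RNA per cell cannot be told apart.

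Piezo1 was therefore also expressed relative to the endothelial and the fibroblast list, as its log2 CPM minus the mean log2 CPM of the list. Relative to endothelial markers it stood 0.38 higher after oxaliplatin than in vehicle, and the groups did not overlap (exact permutation test, two-sided, p = 0.0286, adjusted over 18 tests p = 0.103). Against paclitaxel the same measure was 0.26 higher, with overlap (exact p = 0.114, adjusted p = 0.187). Relative to fibroblast markers the differences were 0.41 (exact p = 0.0286, adjusted p = 0.103) and 0.07 (exact p = 0.600, adjusted p = 0.600). The smallest p that 4 libraries against 4 can give is 0.0286, and adjusted over 18 tests it falls under 0.05 only where many of the tests reach it. Both reference lists were chosen after the data were seen, and no other non-neuronal list was used as a reference. Against vehicle the medians of the erythroid, adipocyte and B cell lists (1.12, 2.06 and 1.72) were larger than the Piezo1 difference (0.66). Beyond these values the part of cell composition in the Piezo1 difference was not tested.

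Piezo2, the touch channel, stood at 40.3 FPKM in vehicle beside 2.53 for Piezo1 and showed no called difference. It measured 424, 363, 444 and 514 CPM in vehicle, 480, 528, 523 and 414 in paclitaxel, and 376, 347, 354 and 467 in oxaliplatin libraries. The groups overlapped in each comparison, with paclitaxel library 4 lowest and oxaliplatin library 4 highest of their groups. The log2 fold change was 0.16 ± 0.12 after paclitaxel (adjusted p = 0.492, edgeR), -0.18 ± 0.12 after oxaliplatin (adjusted p = 0.498) and -0.33 ± 0.12 between the drugs (adjusted p = 0.0932). The last passed in 4 of 20 settings, with an adjusted p of 0.00725 to 0.509 over all of them. The 4 were DESeq2 (adjusted p = 0.0428), voom with quality weights (0.00725), and the fits without paclitaxel library 4 (0.0337) or oxaliplatin library 4 (0.0292). Markers of low-threshold mechanoreceptors and proprioceptors, the neurons known for Piezo2, summed to 4206 to 5115 CPM in vehicle, 3867 to 6232 in paclitaxel and 2899 to 3785 in oxaliplatin libraries. Of the 14 tested, 9 were lower after oxaliplatin than in vehicle (median -0.13, 0 called) and 11 than after paclitaxel (-0.31, 3 called lower and 1 higher). Their mean log2 CPM, relative to vehicle, overlapped between vehicle (-0.118 to 0.126) and oxaliplatin libraries (-0.312 to 0.015). Nociceptor markers moved the same way, with 8 of 11 lower than in vehicle (-0.08, 1 called) and 11 of 11 lower than after paclitaxel (-0.30, 4 called). Of all tested genes 1.76% and 11.3% were called in these comparisons.

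The share of Piezo1 in the summed FPKM of both Piezo genes was 5.96 ± 1.29% in vehicle, 4.96 ± 0.892% after paclitaxel and 10.2 ± 0.875% after oxaliplatin (SD, n = 4). The oxaliplatin libraries, at 10.4, 11.1, 10.4 and 8.99%, all lay above the highest of the others, which was 6.99%. Oxaliplatin differed from vehicle by 4.26 percentage points and from paclitaxel by 5.26 (exact permutation test, p = 0.0286 for each, adjusted over 15 share tests p = 0.0714). With 4 libraries a group, none of the 15 shares passed after adjustment. As 0.0286 is the smallest p possible, passing would need many of the 15 tests at that value, so this outcome says little about any 1 share.

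**Figure D2:**
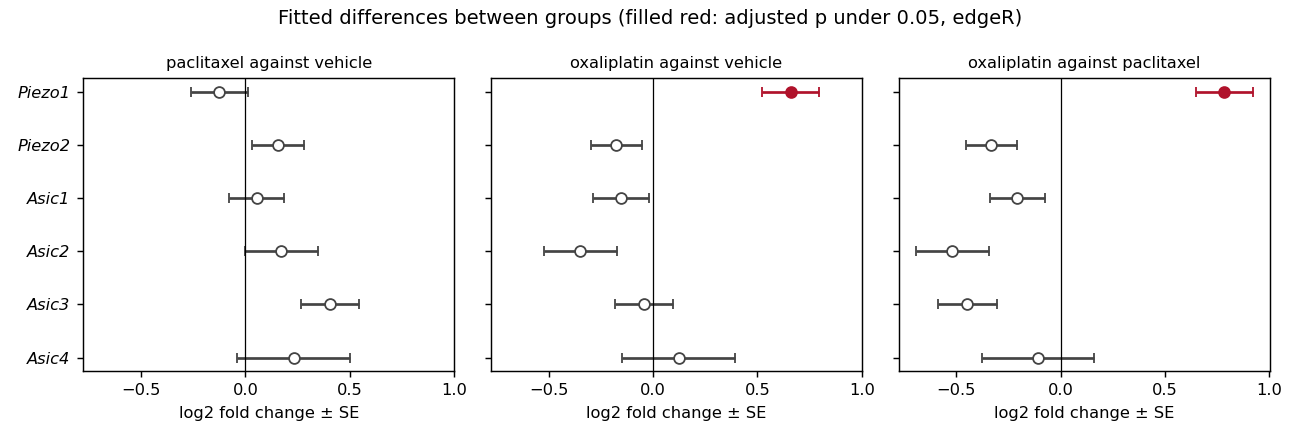
Fitted log2 fold change ± SE (horizontal axis) of the 6 tested genes in the 3 comparisons, with filled red points for an adjusted p under 0.05 (edgeR). Piezo1 is the only filled point, at 0.66 against vehicle and 0.78 against paclitaxel, and Piezo2, Asic1, Asic2 and Asic3 lie left of 0 in both oxaliplatin comparisons.

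Among the acid-sensing channels, Asic1 and Asic3 together made up most of the family's RNA, and their upstream sequences differ in make-up. RefSeq (GRCr8) had entries for Asic1, Asic2 and Asic3, and the 250 bases before each annotated start site are printed 5′ to 3′ on the gene's strand. The levels of these genes varied together across the 12 libraries (Pearson r of 0.75 to 0.78 between them, and 0.47 to 0.61 with Asic4). This was not particular to the family, as Piezo2 varied with Asic1, Asic2 and Asic3 as closely (0.80, 0.80 and 0.77). Asic2 has 2 annotated start sites. Capitals mark matches on either strand to TATAAA (the TATA box), GGGCGG (the GC box bound by Sp1), CANNTG (the E-box), TGANTCA (AP-1) and ATTAAT (bound by POU and homeodomain factors).
Asic1, chr7:132678457-132678706, plus strand: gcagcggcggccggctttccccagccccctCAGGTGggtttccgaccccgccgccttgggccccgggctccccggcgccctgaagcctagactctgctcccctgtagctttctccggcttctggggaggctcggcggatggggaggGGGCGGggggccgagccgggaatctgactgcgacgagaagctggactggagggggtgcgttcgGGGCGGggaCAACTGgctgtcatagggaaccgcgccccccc
Asic2 start site 1, chr10:67438238-67438487, minus strand: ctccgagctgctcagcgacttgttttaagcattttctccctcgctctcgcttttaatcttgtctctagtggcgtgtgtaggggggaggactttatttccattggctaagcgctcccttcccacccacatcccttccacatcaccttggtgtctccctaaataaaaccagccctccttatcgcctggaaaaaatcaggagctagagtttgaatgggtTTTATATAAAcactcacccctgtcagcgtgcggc
Asic2 start site 2, chr10:66636062-66636311, minus strand: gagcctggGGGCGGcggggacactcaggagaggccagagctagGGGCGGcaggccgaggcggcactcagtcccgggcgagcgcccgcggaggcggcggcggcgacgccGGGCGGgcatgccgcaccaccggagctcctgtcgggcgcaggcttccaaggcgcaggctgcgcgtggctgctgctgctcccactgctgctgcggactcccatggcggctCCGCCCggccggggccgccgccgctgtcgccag
Asic3, chr4:11657368-11657617, minus strand: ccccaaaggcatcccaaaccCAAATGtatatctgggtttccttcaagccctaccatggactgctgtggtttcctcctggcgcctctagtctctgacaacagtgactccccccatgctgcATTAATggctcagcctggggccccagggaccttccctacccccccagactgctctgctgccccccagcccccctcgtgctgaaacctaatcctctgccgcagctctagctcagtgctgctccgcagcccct

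The Asic1 window held 2 GC boxes and 2 E-boxes at a GC content of 72.8%. The windows of Asic2 differed from each other: site 1 held 2 overlapping TATA matches at 49.6% GC, and site 2 held 4 GC boxes at 78.8% GC. The Asic3 window held 1 E-box and 1 ATTAAT at 60.4% GC, and no GC box or TATA match. Of 33469 windows of this length in the RefSeq table, 12.9% held TATAAA, 30.5% GGGCGG, 65.5% CANNTG, 6.34% TGANTCA and 4.71% ATTAAT, and the median GC content was 51.2%. These are matches of letters in a window and say nothing of whether a factor binds.

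Asic1, a main proton-gated subunit, measured 180, 172, 201 and 204 CPM in vehicle, 232, 184, 209 and 161 in paclitaxel, and 178, 146, 145 and 211 in oxaliplatin libraries. The groups overlapped throughout, with the lowest values in oxaliplatin libraries 2 and 3. The log2 fold changes were 0.05 ± 0.13 after paclitaxel, -0.15 ± 0.13 after oxaliplatin and -0.21 ± 0.13 between the drugs (adjusted p = 0.836, 0.599 and 0.316, edgeR). An interval of 2 SE around the paclitaxel value ran from -0.21 to 0.32. Its estimated counts were fractional in all 12 libraries, so Asic1 is uncertain where reads were shared with another gene.

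Asic3, the sensory neuron subunit, measured 81.2, 88.7, 91.1 and 109 CPM in vehicle libraries. It measured 140, 113, 142 and 93.6 CPM after paclitaxel, and 101, 81.6, 76.0 and 101 CPM after oxaliplatin. Of the paclitaxel libraries, 1 to 3 lay above every vehicle and oxaliplatin library, and library 4 lay among them. Its log2 fold change after paclitaxel was 0.41 ± 0.14, the largest among the tested members, and did not pass over all genes (adjusted p = 0.228, edgeR). Without paclitaxel library 4 it was 0.51 and passed (adjusted p = 0.0316), as it did in voom with quality weights (0.45, adjusted p = 0.0348). It passed in these 2 of 20 settings, in a range of 0.0316 to 0.999 over all. In the same settings the genes called among all tested rose from 19 to 1631 and 1891, so passing there was not particular to Asic3.

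Between the drugs Asic3 had a log2 fold change of -0.45 ± 0.14 (adjusted p = 0.0543, edgeR), just outside the threshold. It passed in 5 of 20 settings, with an adjusted p of 0.00828 to 0.322 over all of them. The 5 were DESeq2 (adjusted p = 0.0182), RLE size factors (0.0485), voom with quality weights (0.00828), and the fits without paclitaxel library 4 (0.0101) or oxaliplatin library 4 (0.0411). Against vehicle, oxaliplatin gave -0.04 ± 0.14 (adjusted p = 0.913).

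Asic2, which joins other subunits in mixed channels, measured 13.0, 10.6, 13.5 and 16.6 CPM in vehicle, 19.8, 15.7, 14.3 and 10.8 in paclitaxel, and 10.6, 11.3, 8.76 and 11.6 in oxaliplatin libraries. The oxaliplatin values lay in the lower part of the vehicle range or below it, and paclitaxel library 4 lay among them. The log2 fold change was 0.17 ± 0.17 after paclitaxel, -0.35 ± 0.18 after oxaliplatin and -0.52 ± 0.18 between the drugs (adjusted p = 0.591, 0.332 and 0.0699, edgeR). The difference between the drugs passed in 3 of 20 settings, with an adjusted p of 0.0141 to 0.567 over all of them. The 3 were DESeq2 (adjusted p = 0.0355), voom with quality weights (0.0173) and the fit without paclitaxel library 4 (0.0141). Like Asic1, Asic2 had fractional counts in all 12 libraries and is uncertain in the same way.

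Asic4, the subunit without a proton current, was scarce, with 13 to 27 counts per library. It measured 1.16, 0.994, 1.14 and 1.09 CPM in vehicle, 1.63, 1.17, 1.60 and 0.755 in paclitaxel, and 0.924, 1.09, 1.24 and 1.52 in oxaliplatin libraries. The vehicle libraries lay inside the range of either drug. The log2 fold changes were 0.23 ± 0.27, 0.12 ± 0.27 and -0.11 ± 0.27 for paclitaxel and oxaliplatin against vehicle and for oxaliplatin against paclitaxel (adjusted p = 0.644, 0.862 and 0.826, edgeR).

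Within the acid-sensing family the mean share of Asic3 was higher and that of Asic1 lower after paclitaxel than in vehicle, differences that did not pass after adjustment (adjusted p = 0.0714 for each, exact permutation test). Shares sum to a fixed total, most of which Asic1 and Asic3 held, so these differences mirror each other and are not separate results. The level of Asic1 itself was 47.4 FPKM in vehicle and 47.2 after paclitaxel. In vehicle Asic1 held 49.5 ± 2.38% of the summed FPKM of Asic1 to Asic4 and Asic3 44.2 ± 2.52%, while after paclitaxel Asic1 held 43.4 ± 1.86% and Asic3 50.5 ± 2.04% (SD, n = 4). The share of Asic3 was 41.5, 46.0, 42.7 and 46.7% in vehicle, 49.8, 50.0, 53.5 and 48.8% after paclitaxel, and 47.9, 47.1, 46.9 and 44.3% after oxaliplatin. The paclitaxel libraries, number 4 included, lay above all the others, and vehicle and oxaliplatin overlapped. The Asic3 share was 6.32 percentage points higher after paclitaxel than in vehicle (exact permutation test, p = 0.0286, adjusted p = 0.0714) and 3.99 points higher than after oxaliplatin (the same p-values). Asic2 held 5.80 ± 0.710% in vehicle and Asic4 0.436 ± 0.0517%, and for both the groups overlapped in each comparison (exact p of 0.200 or more).

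**Figure D3:**
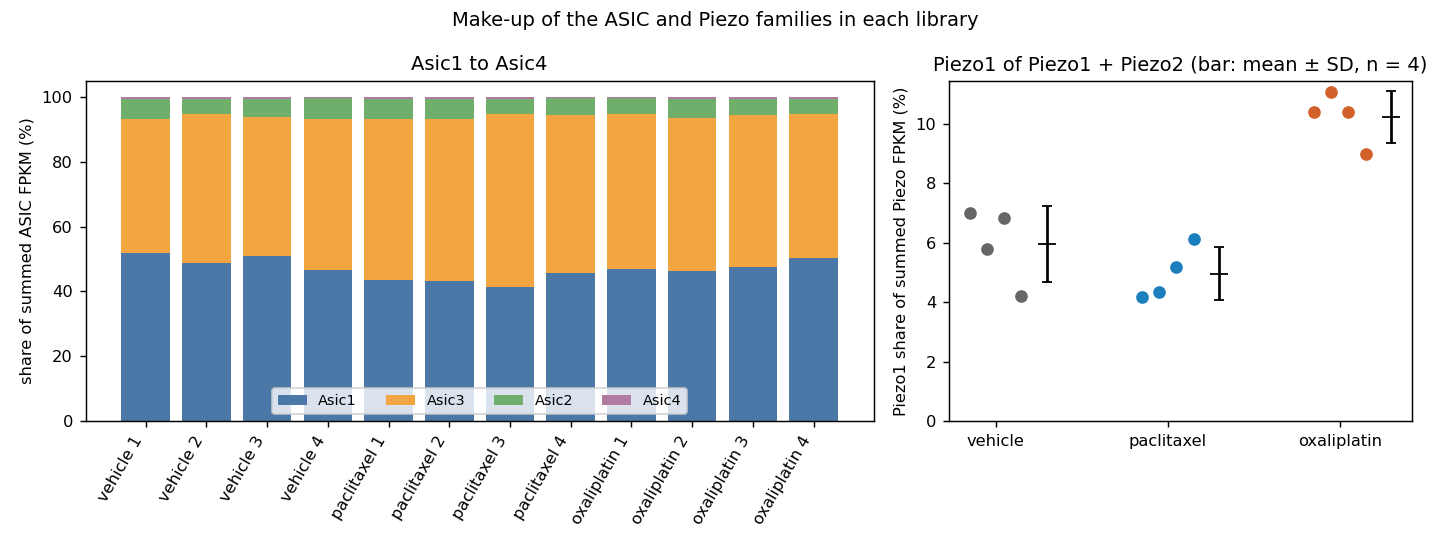
Left, share of Asic1, Asic3, Asic2 and Asic4 in their summed FPKM (percent, vertical axis) in each of the 12 libraries; right, share of Piezo1 in the summed FPKM of Piezo1 and Piezo2, with points for libraries and bars for mean ± SD (n = 4). The Asic3 band is 48.8 to 53.5% wide in the paclitaxel libraries and 41.5 to 47.9% in the others, and the Piezo1 share is 8.99 to 11.1% in the oxaliplatin libraries and 4.18 to 6.99% in the others.

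Stoml3, the modulator of touch sensitivity, was at the limit of detection. Its estimated counts were 0.92, 4.01, 0 and 2 in vehicle, 1, 4, 2 and 1 in paclitaxel, and 3.06, 2, 1.03 and 4.53 in oxaliplatin libraries. Of the 12 values, 8 were at or under 3 counts, the number that a count of 0 still allows (0.170 to 0.176 CPM), and this floor covers counting error only. A difference between groups was not detectable at this depth, and without the filter its log2 fold changes had standard errors of 0.76 to 0.81.

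The 16 pan-neuronal markers varied across libraries along with Piezo2, Asic1, Asic2 and Asic3, and less closely with Asic4. All 16 were higher after paclitaxel (median log2 fold change 0.27, 0 called), 15 were lower after oxaliplatin (-0.13, 0 called), and all 16 were lower after oxaliplatin than after paclitaxel (-0.38, 7 called). Of all tested genes 0.12%, 1.76% and 11.3% were called in these comparisons. The mean log2 CPM of the 16 markers, relative to vehicle, was -0.06 to 0.09 in vehicle, 0.08 to 0.35 in paclitaxel and -0.24 to 0.02 in oxaliplatin libraries, with library 4 lowest of the paclitaxel and highest of the oxaliplatin group. Piezo2, Asic1, Asic2, Asic3 and Asic4 each had their lowest paclitaxel value and their highest oxaliplatin value in those same libraries. Across the 12 libraries, which share group differences and sequencing depth, the Pearson correlation with the neuronal mean was 0.86 for Piezo2, 0.79 for Asic1, 0.84 for Asic2, 0.90 for Asic3 and 0.46 for Asic4. With group means removed it was 0.80, 0.98, 0.79, 0.90 and 0.71. Asic4 stood at 0.12 after oxaliplatin, where the median of the neuronal markers was -0.13. For Piezo1 the correlation was -0.70, and -0.15 with group means removed, while with the endothelial mean it was 0.88 and 0.77. No other non-neuronal list was correlated with Piezo1. The mean of the pericyte and smooth muscle markers was also high in vehicle libraries 1 and 3 (0.39 and 0.33), low in 2 and 4 (-0.31 and -0.40) and 0.24 to 0.46 in oxaliplatin libraries.

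**Figure D4:**
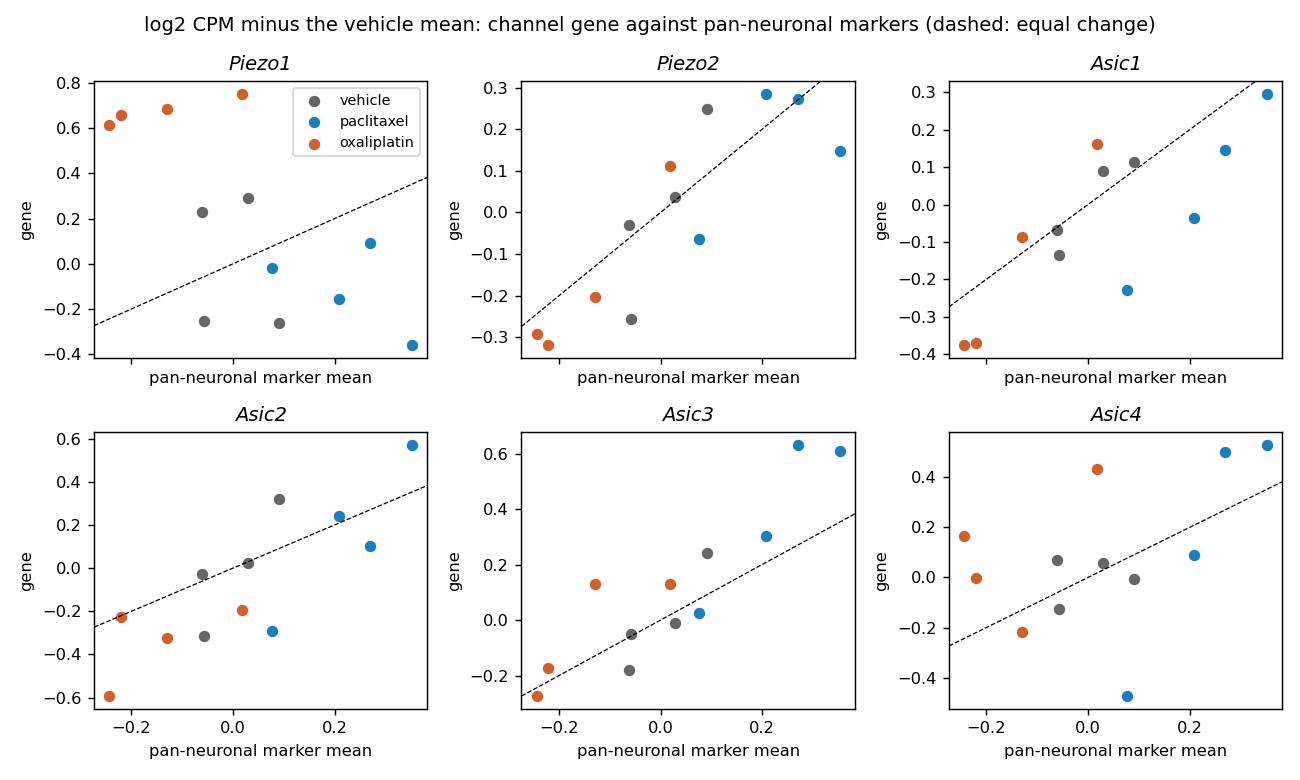
Log2 CPM of each tested gene minus its vehicle mean (vertical axis) against the mean of the 16 pan-neuronal markers on the same scale (horizontal axis), 1 point a library, coloured by group; the dashed line marks equal change. Piezo2 lies along the line, and the 4 oxaliplatin points of Piezo1 lie far above it, at 0.82 above the vehicle mean relative to the neuronal markers.

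Relative to the pan-neuronal markers, Piezo2 differed by -0.07 after paclitaxel, -0.03 after oxaliplatin and 0.03 between the drugs on the log2 scale (exact permutation test, p = 0.514, 0.743 and 0.657). Asic3 differed by 0.17, 0.10 and -0.07 (exact p = 0.200, 0.286 and 0.600). Asic1 was 0.18 lower after paclitaxel by the same measure (-0.18, exact p = 0.0571, adjusted p = 0.343), and differed by -0.02 after oxaliplatin. Piezo1 was 0.82 higher after oxaliplatin than in vehicle and 1.16 higher than after paclitaxel, without overlap (exact p = 0.0286 for each, adjusted p = 0.257). None of the 18 tests passed after adjustment. As no p can go below 0.0286 here, an adjusted p under 0.05 needs many of the 18 tests at that value, so Piezo1 by itself could not pass. With the neuronal mean as a covariate in edgeR, Piezo1 kept its call against vehicle (0.62, adjusted p = 0.026), and Asic3 after paclitaxel stood at -0.05 (adjusted p = 0.999). That mean itself differed between the drug groups without overlap (0.08 to 0.35 in paclitaxel and -0.24 to 0.02 in oxaliplatin libraries). In this fit drug and neuronal level therefore cannot be told apart.

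**Figure D5:**
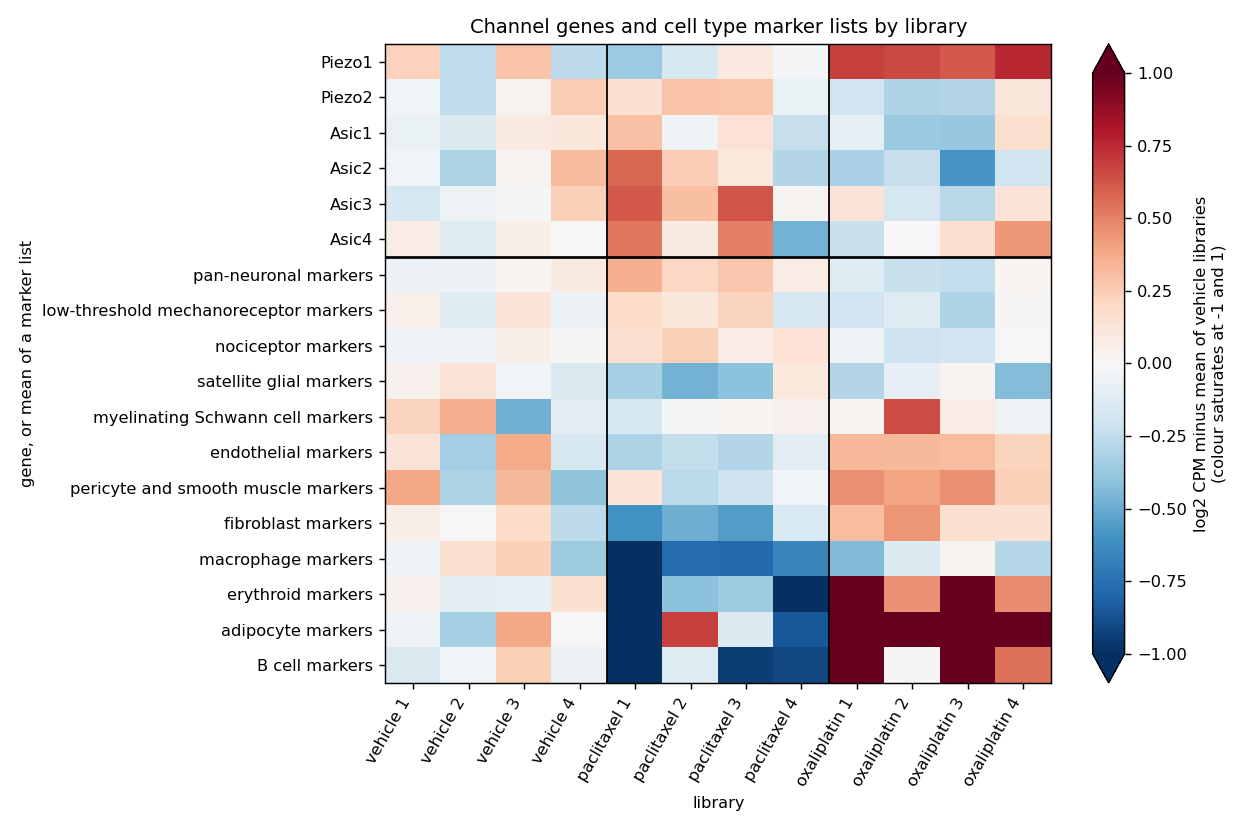
Log2 CPM minus the mean of the vehicle libraries (colour, saturating at -1 and 1) for the 6 tested genes (upper rows) and for the mean of each cell type marker list (lower rows) in the 12 libraries. Piezo1 is high in all oxaliplatin libraries, as are the endothelial (0.22 to 0.33), fibroblast (0.16 to 0.44), pericyte and smooth muscle (0.24 to 0.46), erythroid (0.46 to 1.52) and adipocyte (1.02 to 2.31) rows. The Asic3 row is highest in paclitaxel libraries 1 and 3.

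The genes whose log2 CPM followed each member most closely were sought among 12857 others over the 12 libraries, as a description. For Piezo1 they were the extracellular matrix genes Fn1 (r = 0.97) and Ltbp4 (0.96) and the collagen receptor gene Mrc2 (0.96). Fn1 and Ltbp4 were called higher after oxaliplatin than in vehicle (log2 fold change 0.70 and 0.68, adjusted p = 0.0336 and 0.0249, edgeR), and Mrc2 was not (0.58, adjusted p = 0.111). All were picked for following Piezo1 with group differences included, so these differences go with the choice and are no separate result. With group means removed, r with Piezo1 was 0.85 for Fn1, 0.81 for Ltbp4 and 0.89 for Mrc2. For Piezo2 they were the kinase gene Mapk10 (0.97), Glb1l2 (0.97) and Bsn (0.97), which encodes the presynaptic scaffold bassoon. Asic1 followed Syt12 (0.93), Syn2 (0.93), a synapsin of synaptic vesicles, and Mink1 (0.92), and Asic2 followed Faf2 (0.95), Rbm20 (0.94) and Asphd2 (0.93). Asic3 followed Prpf19 (0.97), Fbxo31 (0.97) and Ttll1 (0.97), and Asic4 Zbtb7a (0.93), Brd2 (0.93) and Alkbh5 (0.93).

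Other genes of mechanical and acid sensing were taken from 4 lists of 39 genes. Of 14 tested channels that are gated by or respond to stretch, 0 were called after either drug, against 0.12% (paclitaxel) and 1.76% (oxaliplatin) of all tested genes. Between the drugs 1 was called, against 11.3% of all tested genes. That was Tmem63c, of the stretch-activated TMEM63 family, at 213 ± 25.8 CPM after paclitaxel and 152 ± 20.3 after oxaliplatin (-0.49 ± 0.11, adjusted p = 0.0142, edgeR). The vehicle mean of 174 ± 8.26 CPM lay between them, and neither drug was called against vehicle (0.29 and -0.20, adjusted p = 0.238 and 0.361). The call between the drugs was lost without paclitaxel library 3 (adjusted p = 0.051), and with the neuronal covariate the value was 0.01 (adjusted p = 0.957). The adjusted p of Tmem63c between the drugs ran from 0.00025 to 0.957 over all settings. Of 6 modulators of Piezo and acid-sensing channels 0 were called, with medians of -0.0023, -0.0063 and -0.13 in the 3 comparisons. Of all tested genes 0.12%, 1.76% and 11.3% were called there, so 0 of 6 says little about this list. Mtmr2, a lipid phosphatase that restrains Piezo2, had -0.27 ± 0.08 after oxaliplatin (adjusted p = 0.116, edgeR). It passed in 2 of 20 settings, DESeq2 (adjusted p = 0.0247) and the neuronal covariate (-0.38, adjusted p = 0.00891), in a range of 0.00891 to 0.246 over all. Those fits called 904 and 1688 genes among all tested, against 278 in the main fit. With the covariate, drug and neuronal level cannot be told apart. Anxa6, an annexin, had 0.34 ± 0.13 after paclitaxel (adjusted p = 0.251). It passed in 2 of 20 settings, voom with quality weights (adjusted p = 0.0431) and the fit without paclitaxel library 4 (0.0441), in a range of 0.0431 to 0.999.

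Of the stomatin family and other DEG/ENaC subunits, 4 of 8 were tested and 0 called, against 0.12%, 1.76% and 11.3% of all tested genes in the 3 comparisons. Stoml1, a stomatin-like protein that acts on acid-sensing channels, had -0.28 ± 0.10 between the drugs (adjusted p = 0.085, edgeR). It passed in 3 of 20 settings, with an adjusted p of 0.00976 to 0.676 over all of them. The 3 were DESeq2 (adjusted p = 0.0401), voom with quality weights (0.00976) and the fit without paclitaxel library 4 (0.0214). Scnn1a, a subunit of the epithelial sodium channel, had 0.97 ± 0.28 after oxaliplatin (adjusted p = 0.0995), with means of 1.05 and 2.07 CPM. It passed in 1 of 20 settings, the neuronal covariate (1.24, adjusted p = 0.027), in a range of 0.027 to 0.227. That fit called 1688 genes against 278 in the main fit, and in it drug and neuronal level cannot be told apart. Of 8 tested proton-sensing channels and receptors outside the ASIC family, 1 was called after oxaliplatin, against 1.76% of all tested genes. Kcnk3, the acid-sensitive background potassium channel TASK-1, rose from 9.30 ± 0.846 CPM in vehicle to 19.3 ± 6.07 after oxaliplatin (1.05 ± 0.19, adjusted p = 0.0205) and had a mean of 18.3 ± 3.58 after paclitaxel (0.97 ± 0.19, adjusted p = 0.0975). All libraries of either drug lay above all vehicle libraries. The oxaliplatin call was lost without vehicle library 1 (adjusted p = 0.0608), 2 (0.0602) or 4 (0.0752), in a range of 8.15e-05 to 0.0752.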

How the data were processed

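Estimated counts and FPKM per gene were deposited for each of the 12 libraries, per the file headers, which also give a transcript length in bases. Per the labels' protocols, Trizol extracts of frozen ganglia went into BGISEQ-500 kit libraries; strandedness is not stated. CASAVA 1.4 and Bowtie2 are named in the submitters' processing notes, and the counter and genome build are not given in the sources used here. Expected counts deposited by the authors can be fractional where reads match more than 1 gene, and they were rounded for the fit. A gene absent from a library's table was taken as 0 (the smallest FPKM listed is 0.01).

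The fit (R 4.3.3, edgeR 4.0.16) used filterByExpr at its defaults (4343 genes set aside), TMM factors of 0.939 to 1.04 and a robust quasi-likelihood fit of 3 group means (9 residual degrees of freedom), two-sided. Relative levels (log2 CPM, prior count 2) and shares were compared with exact permutation tests in SciPy 1.17.1, adjusted over 18 and 15 tests. The design foresaw 21 relative tests, but Stoml3 was not tested. The code was tested on simulated data. Alternatives were DESeq2 1.42.0, limma 3.58.1 (voom with quality weights, and limma-trend on log2(FPKM + 1) or log2(FPKM + 0.1)), other scalings and filters, a replicate block, a neuronal covariate, 2-group fits and leaving out each library.

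All 7 members are named. From each pathway list the rule takes every called gene (at most 4), or the 2 of smallest p where none was called, and for each member the 3 genes with the highest correlation. Members and lists were chosen with earlier results of these data known. Sequences are from RefSeq GRCr8, where 5 of the 7 genes had an upstream entry, and those not printed are not used here.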

Additional observations from a re-analysis of the deposited data

How the results depend on the processing

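Of the single gene, relative level and share values, 271 kept direction and side of the threshold under alternatives other than leaving out a library, 14 came to pass, 4 ceased to pass in the same direction and 44 changed sign (1 of which, Tmem63c between the drugs, also ceased to pass), and when a library was left out the counts were 420, 8, 10 and 18. The cause of these changes was not tested, except that dropping a library lowers the number of samples. The library totals and 4 libraries a group limit the precision.

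The number of members called for oxaliplatin against paclitaxel was 4 in DESeq2, 2 with RLE size factors, 4 in voom and 0 with the neuronal covariate, and 1 to 4 when a library was left out. For oxaliplatin against vehicle it was 0 in limma-trend on log2(FPKM + 1) without a filter, and 0 to 1 when a library was left out. For paclitaxel against vehicle it was 1 in voom, and 0 to 1 when a library was left out. Over all genes DESeq2 called 238, 904 and 2782 (paclitaxel against vehicle, oxaliplatin against vehicle, oxaliplatin against paclitaxel), voom 1891, 566 and 4714, the neuronal covariate 6, 1688 and 41, and fits of 2 groups 161 and 1016 in the latter comparisons, against 19, 278 and 1788. When a library was left out these counts ran from 10 to 1631, from 49 to 242 and from 571 to 3463, the highest of the paclitaxel comparisons without paclitaxel library 4. The number of relative levels and of shares that passed was 0 throughout. With 4 libraries against 4 passing needs many tests at the smallest possible p, and with 3 libraries against 4 no p can go below 0.0571, so this count could hardly differ from 0.

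The labels give replicate numbers and no pairing. Deviations of same-numbered libraries correlated at -0.232 to 0.157 in 12 pairs, 1 of them over 0.1, and 2 of 12 libraries correlated best with their own number. Such correlations cannot show whether the libraries were paired. With the replicate block 0 members were called for oxaliplatin against vehicle (Piezo1 0.67, adjusted p = 0.0633, edgeR), and 72 and 986 genes in the oxaliplatin comparisons. Kcnk3 had 1.04 (adjusted p = 0.0633) in that fit.

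The neuronal covariate did not overlap between the drug groups, so values under it cannot tell drug and neuronal level apart. With it the log2 fold change after paclitaxel became -0.17 for Piezo2, -0.40 for Asic1, -0.32 for Asic2, -0.050 for Asic3, -0.32 for Asic4 and -0.061 for Anxa6. After oxaliplatin it became 0.032 for Piezo2, 0.12 for Asic1 and 0.24 for Asic3. Between the drugs it became 0.20 for Piezo2, 0.52 for Asic1, 0.28 for Asic2, 0.29 for Asic3, 0.76 for Asic4, 0.014 for Tmem63c and 0.13 for Stoml1. Asic1 after paclitaxel was -0.0092 in limma-trend on log2(FPKM + 0.1) and -0.0089 on log2(FPKM + 1), with or without a filter. The Asic4 share after paclitaxel differed by 0.0048 percentage points from counts.

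Relative to low-threshold mechanoreceptor markers, the paclitaxel difference was 0.073 for Piezo2, 0.068 for Asic2 and 0.074 for Asic4, and Piezo2 had -0.091 between the drugs. With endothelial markers as reference, chosen after seeing the data, the paclitaxel difference was 0.13 for Piezo1, 0.40 for Piezo2, 0.28 for Asic1, 0.39 for Asic2 and 0.40 for Asic4. The oxaliplatin difference was -0.34 for Asic3 and -0.20 for Asic4, and that between the drugs -0.87 for Piezo2, -0.75 for Asic1 and -0.60 for Asic4. With fibroblast markers, also chosen after seeing the data, the values were 0.34 for Piezo1, 0.61 for Piezo2, 0.49 for Asic1, 0.61 for Asic2 and 0.61 for Asic4 after paclitaxel, -0.31 for Asic3 and -0.17 for Asic4 after oxaliplatin, and -1.05 for Piezo2, -0.93 for Asic1 and -0.79 for Asic4 between the drugs.

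Values near 0 changed sign when a library was left out. Log2 fold changes ran from -0.035 to 0.14 for Asic1 after paclitaxel, from -0.11 to 0.044 for Asic3 and -0.022 to 0.23 for Asic4 after oxaliplatin, and from -0.30 to 0.024 for Asic4 between the drugs. Levels relative to neuronal markers ran from -0.17 to 0.029 for Asic2 and -0.16 to 0.098 for Asic4 after paclitaxel, from -0.079 to 0.018 for Asic1 and -0.097 to 0.021 for Piezo2 after oxaliplatin, and from -0.011 to 0.082 for Piezo2 between the drugs. Shares after paclitaxel ran from -0.52 to 0.092 percentage points for Asic2 and from -0.033 to 0.017 for Asic4.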
